A study of Mus musculus with 14 samples.

Results

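Oxidative phosphorylation is carried out by 5 protein complexes of the inner mitochondrial membrane, and the genes for most of their subunits lie in the nucleus. Those nuclear genes were described here in regulatory T cells (Tregs), the Foxp3-expressing CD4 T cells that restrain other lymphocytes, sorted from spleen and from tumor. Members were the protein-coding genes of the count table whose official symbol begins with Ndufa, Ndufb, Ndufc, Ndufs, Ndufv, Uqcr, Cox4, Cox5, Cox6, Cox7, Cox8 or Atp5, or is Sdha, Sdhb, Sdhc, Sdhd or Cyc1, without the Ndufaf assembly factors and without pseudogenes. The rule found 89 of the 27179 genes: 41 of complex I, 4 of complex II, 9 of complex III, 18 of complex IV and 17 of the ATP synthase (complex V). It used names only and no measured value. The members lie on 19 chromosomes.

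The mice carried MC38 tumors, from a mouse colon carcinoma line, in the flank until the endpoint. All carried FoxP3Cre-YFP, a Cre recombinase and yellow fluorescent protein produced from the Foxp3 locus, and the cells were sorted by that fluorescence. The strain was B6.IL23RWT in 4 libraries and B6.IL23RFlox in 3 libraries of each tissue, giving 14 libraries of polyadenylated RNA in 4 groups: Spleen WT, Spleen Flox, TIL WT and TIL Flox, where TIL stands for tumor-infiltrating. Il23r encodes the IL-23 receptor subunit that the Cre is designed to delete in Tregs. The labels give no age and do not say whether a replicate is a mouse of its own, and p-values thus cover the spread between libraries, which may be technical.

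The 14 libraries held 4859099 to 10333892 counts, and 13657 to 15312 genes had a count in a library. Foxp3 lay between 98.2 and 268 CPM in all libraries, where CPM are read counts scaled to the library total after TMM, a correction for uneven composition of the libraries. Summed over 8 B cell markers, Spleen WT libraries held 740 to 2122 CPM and Spleen Flox libraries 445 to 580 CPM. TIL WT libraries held 62.1 to 310 CPM and TIL Flox libraries 49.5 to 54.9 CPM. The Flox sums thus lay below the WT sums in both tissues, though 0 of the markers tested had an adjusted p under 0.05 between them in edgeR. The part of these cells in the genotype contrasts was not tested. Il23r was not lower under the Flox label. The TIL Flox libraries held 17 counts and the TIL WT libraries 2 (0.662 ± 0.238 CPM, SD, n = 3, against 0.0538 ± 0.108 CPM, SD, n = 4). A two-sided exact permutation test gave p = 0.0286 in TIL, its smallest possible value for this design. The Spleen Flox libraries held 10 counts and the Spleen WT libraries 2 (two-sided exact permutation test, p = 0.371). These are counts per gene and the deleted exons are not given. Whether Il23r goes against the labels thus cannot be told. The 2 strains are thus named Flox-labelled and WT-labelled here. The Y-linked Ddx3y was at 281 to 656 CPM in every Flox-labelled library and at 29.2 CPM (spleen) and 127 CPM (TIL) in the WT-labelled libraries numbered 2, and did not exceed 0.614 CPM in the remaining 6. Xist, made by female cells, was at 72.4 and 56.7 CPM in the libraries numbered 2, which thus held Xist and Ddx3y reads together, and at 0.502 to 3.34 CPM in the Flox-labelled libraries. The genotype label and sex cannot be told apart.

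Complexes I and II take electrons from NADH and from succinate, complex III passes them to cytochrome c, complex IV passes them to oxygen, and the proton gradient built along the way drives the ATP synthase. Complexes I, III and IV and the ATP synthase each mix nuclear subunits with subunits made inside the mitochondrion from its own genome. In many cell types the nuclear genes respond to the transcription factors NRF1, GABP (an ETS family protein), YY1 and the estrogen-related receptors. Activated T cells and Tregs are known to use oxidative phosphorylation.

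The promoters show where such factors could bind. RefSeq promoters of GRCm38.p6, 250 bases before to 50 bases after the gene's start, were matched for 71 of the 89 members. The NRF1 motif GCGCANGCG, searched like the others on both strands, lay in 20 of them (28.2%) and in 7.03% of the promoters of all 27025 genes with an entry (9.63% of protein-coding genes). The YY1 motif AAGATGGCG lay in 7 (9.86%, against 1.64% of all and 2.14% of protein-coding genes) and the ETS motif CCGGAAGT in 5 (7.04%, against 4.31% and 5.69%). These are letter matches and not shown binding sites, and Ndufs6, Atp5h and Uqcr11 each held 2 of the 3 motifs. The stretch of 120 bases before the start is printed for the 5 members with an entry among the 6 that differed between TIL and spleen, 5′ to 3′ on the gene's own strand, with a motif match in capitals. All 5 genes lie on the minus strand: Cox8a at chr19:7217615-7217736, Ndufb1 at chr12:101975739-101975858, Ndufb8 at chr19:44555443-44555562, Atp5k at chr5:108434400-108434519 and Cox7a2l at chr17:83514334-83514453. The Cox8a stretch runs on for 2 transcribed bases, because the ETS match, read on the opposite strand, crosses the start.
Cox8a: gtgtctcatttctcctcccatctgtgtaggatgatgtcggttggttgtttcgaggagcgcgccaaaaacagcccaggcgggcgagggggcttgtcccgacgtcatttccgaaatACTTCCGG
Ndufb1: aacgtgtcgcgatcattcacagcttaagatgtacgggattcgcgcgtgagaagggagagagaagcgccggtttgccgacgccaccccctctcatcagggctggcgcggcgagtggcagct
Ndufb8: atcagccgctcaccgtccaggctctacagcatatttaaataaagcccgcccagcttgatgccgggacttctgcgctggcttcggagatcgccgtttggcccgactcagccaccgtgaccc
Atp5k: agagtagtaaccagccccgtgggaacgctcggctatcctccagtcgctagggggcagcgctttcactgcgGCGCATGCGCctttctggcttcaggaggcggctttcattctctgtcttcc
Cox7a2l: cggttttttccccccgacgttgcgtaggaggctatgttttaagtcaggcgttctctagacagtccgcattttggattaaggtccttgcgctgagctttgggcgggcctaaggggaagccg
The Atp5k stretch holds overlapping NRF1 matches, on both strands, of which the first begins 50 bases before the start. The stretches of Ndufb1, Ndufb8 and Cox7a2l hold none of these letters.

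Levels were uneven within and between complexes. Per kilobase of exon, the scale on which genes can be compared, the highest members over all 14 libraries were the complex III iron-sulfur protein Uqcrfs1 (124 CPM per kb) and the complex III hinge protein Uqcrh (93.6 CPM per kb), the ATP synthase alpha subunit Atp5a1 (73.7 CPM per kb) and the complex IV subunit Cox7b (67.0 CPM per kb). The order depends on the tissue: Uqcrh stood at 47.0 CPM per kb in spleen, below Atp5a1 (72.6) and Cox7b (59.0), and at 140 CPM per kb in TIL. The complex I members were lower, with Ndufa13 first at 23.9 CPM per kb. Exon lengths cover all annotated isoforms and were found for 87 members.

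Apart from Cox4i2, described with the tissue contrast, the tissue-specific isoforms of complex IV were at or near 0. Cox7b2 and Cox8c had no count in any library, which allows up to 3 counts each. Over all 14 libraries Cox8b, of heart and skeletal muscle, had 2 counts, Cox6a2, the muscle form of subunit 6a, 12 counts, Cox6b2, the testis form of 6b, 13 counts, and Cox7a1, the muscle form of 7a, 27 counts. Ndufa4l2, a gene known to respond to low oxygen, had 8 counts, all of them in TIL libraries.

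Some subunits that every cell is known to need were also nearly absent from the table. Uqcr11 of complex III had 0 counts, Sdhd, a membrane anchor of complex II, had 4 counts, Ndufa8 13 counts, Ndufa12 71 counts and Cox7a2, the common form of subunit 7a, 194 counts. Their share of 50-base stretches that also occur in transcripts of other genes was 0% for Sdhd, Ndufa8 and Cox7a2, 10.9% for Uqcr11 and 26.2% for Ndufa12. The other complex II subunits were present, the flavoprotein Sdha at 36.6 to 117 CPM in spleen and 21.8 to 92.6 CPM in TIL libraries and the iron-sulfur subunit Sdhb at 16.1 ± 3.01 and 21.8 ± 5.75 CPM (SD, n = 7 each). The level of an essential subunit in this table is thus a level of what the authors counted, and why these members are low was not tested.

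In TIL against spleen, fitted over 14 libraries with the genotype label as a covariate, 78 of the 89 members had enough counts for a test, and 6 passed an adjusted p of 0.05 (7.69%), 5 higher and 1 lower in TIL. Of all 12008 genes tested, 22.5% passed, 12.3% higher and 10.2% lower, and the members' share lay below that background. DESeq2 called 19 members (all genes 30.6%) and limma voom 8 (all genes 23.0%), while within the WT-labelled libraries alone 0 passed (all genes 7.10%) and within the Flox-labelled alone 0 (all genes 7.87%). Before any threshold, 62 members were higher and 16 lower, with a median log2 fold change of 0.35, where all genes had 50.7% higher and a median of 0.03. At an unadjusted p under 0.05 stood 19 members, 18 of them higher, against 35.6% of all genes. This lean depends on the scaling: on unadjusted library totals 39 members were higher and 39 lower, with a median of -0.01, but the median of all genes then fell to -0.33. Relative to all genes the members' median was 0.32 higher under either scaling. The SE had a median of 0.34 among the members and of 0.59 among all genes.

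**Figure D1:**
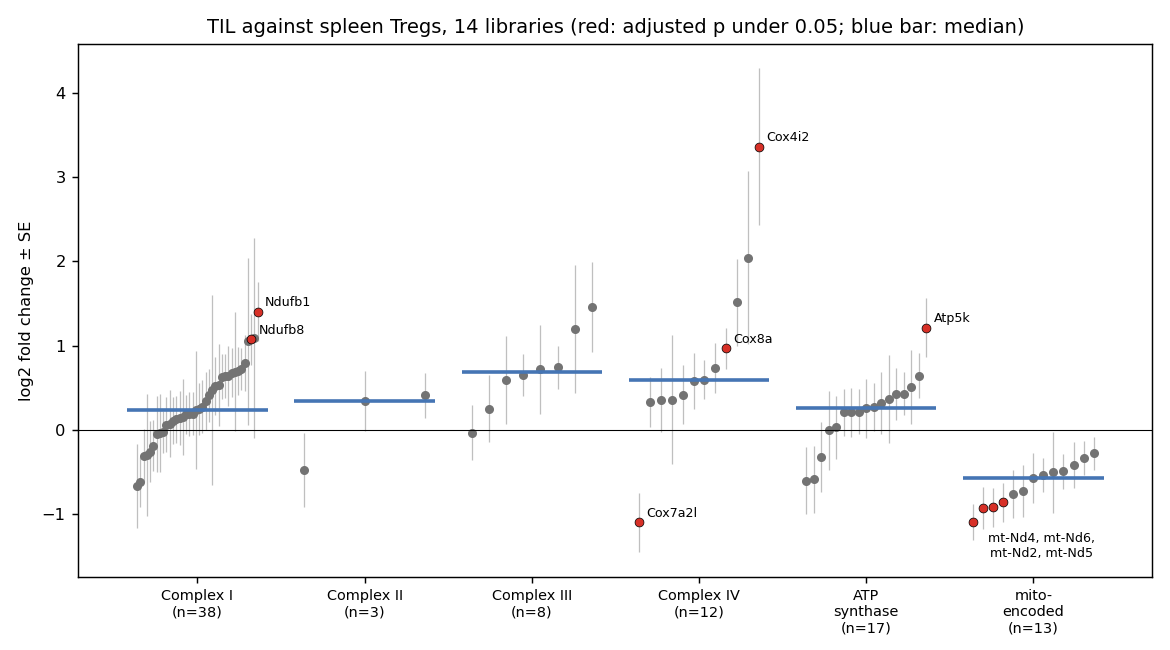
Log2 fold change of TIL against spleen (vertical axis, bars are SE) for each member tested, in columns by complex, and for the 13 mitochondrially encoded subunits; points are sorted within a column, red marks an adjusted p under 0.05 and blue bars are medians. The medians of the nuclear columns lie between 0.24 and 0.69, and every mitochondrially encoded subunit lies below 0.

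Cox8a, the common isoform of the smallest nuclear subunit of complex IV, was the steadiest of the changes. It stood at 14.9, 16.2, 14.2 and 12.97 CPM in the Spleen WT-labelled and 11.9, 14.7 and 11.9 CPM in the Spleen Flox-labelled libraries. In TIL it stood at 30.3, 26.0, 21.5 and 32.0 CPM in WT-labelled and 26.8, 27.3 and 25.0 CPM in Flox-labelled libraries. Every TIL library lay above every spleen library, and Cox8a rose by a log2 fold change of 0.97 ± 0.24 (SE), adjusted p = 0.0113. Of the 78 members, 5 lay without overlap on the higher side in TIL, Cox8a, Ndufb1, Ndufb8, Cox5b and Ndufa13, and 0 on the lower side, against 5.91% and 3.48% of all genes tested.

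The 2 complex I members that rose, Ndufb1 and Ndufb8, are accessory subunits of its membrane arm. Ndufb1 stood at 7.58, 6.09, 6.61 and 3.01 CPM in Spleen WT-labelled, 3.51, 6.34 and 5.86 CPM in Spleen Flox-labelled, 12.3, 12.7, 9.01 and 12.5 CPM in TIL WT-labelled and 13.1, 34.2 and 13.4 CPM in TIL Flox-labelled libraries. All TIL libraries lay above the spleen libraries, with 1 Flox-labelled library far above the rest, and the change was 1.40 ± 0.35 on the log2 scale (adjusted p = 0.0115). Ndufb8 stood at 9.42, 8.11, 7.004 and 5.64 CPM in Spleen WT-labelled, 5.52, 8.46 and 9.04 CPM in Spleen Flox-labelled, 29.9, 15.7, 10.4 and 13.2 CPM in TIL WT-labelled and 13.8, 11.7 and 17.8 CPM in TIL Flox-labelled libraries. Its change was 1.07 ± 0.30 (adjusted p = 0.0209), again without overlap. An exon of Ndufb8 overlaps another annotated gene on the same strand, and their reads cannot be told apart here.

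Atp5k, subunit e of the ATP synthase, which takes part in pairing of the enzyme, was tight in spleen and wide in TIL. It stood at 5.94, 5.07, 5.62 and 4.32 CPM in Spleen WT-labelled, 4.71, 5.72 and 4.61 CPM in Spleen Flox-labelled, 11.3, 9.58, 16.5 and 6.01 CPM in TIL WT-labelled and 23.6, 5.23 and 11.8 CPM in TIL Flox-labelled libraries. The groups overlap through TIL Flox replicate 2, and the change was 1.21 ± 0.35 (adjusted p = 0.0220). Without TIL Flox replicate 1 the adjusted p was 0.052.

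Cox4i2, the isoform of subunit 4 known from lung and from cells under low oxygen, had the greatest change among the members that passed. It was barely present in spleen, at 0.205, 0.078, 0.493 and 0.564 CPM in WT-labelled and 0.602, 0 and 0.754 CPM in Flox-labelled libraries. In TIL it stood at 0, 11.8, 5.91 and 4.41 CPM in WT-labelled and 2.09, 0.638 and 5.18 CPM in Flox-labelled libraries. Of the 7 TIL libraries 1 held no read of it and another lay within the spleen range, so the groups overlap, and the change was 3.36 ± 0.93 (adjusted p = 0.0187). Per kilobase the common isoform Cox4i1 remained well above it in TIL, at 37.5 against 5.45 CPM per kb, with Cox4i1 itself at a log2 change of 0.42 ± 0.35 that did not pass (adjusted p = 0.425). Without both WT-labelled libraries numbered 2 the change of Cox4i2 was 2.68, with an adjusted p of 0.061.

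Cox7a2l, which helps join complexes III and IV into supercomplexes, was the 1 member that fell on TMM scaling. It stood at 92.0, 60.3, 88.7 and 65.8 CPM in Spleen WT-labelled and 34.2, 52.0 and 60.0 CPM in Spleen Flox-labelled libraries, and in TIL at 15.2, 32.0, 26.0 and 45.6 CPM in WT-labelled and 34.0, 38.7 and 14.9 CPM in Flox-labelled ones. Within WT-labelled libraries all TIL values lay below all spleen values, while the Flox-labelled ones overlapped. The change was -1.10 ± 0.36 (adjusted p = 0.0391), and the adjusted p was between 0.053 and 0.074 in 9 of the 14 fits that left out 1 library. Of its 50-base stretches 17.8% also occur in transcripts of 1 other gene.

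On unadjusted library totals the 6 kept their direction, but only Cox4i2 (3.04, adjusted p = 0.0293) and Cox7a2l (-1.43, adjusted p = 0.0153) passed. Cox8a (0.61), Ndufb1 (1.04), Ndufb8 (0.69) and Atp5k (0.88) then had adjusted p between 0.0549 and 0.0983, and the complex I core subunit Ndufv2 was called lower in TIL as well.

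Of the 6, the 5 that could be tested within each genotype label kept their direction there. The 6 were chosen by the fit over these same libraries, so the shared direction is a description and no separate test. Within WT-labelled and within Flox-labelled libraries, the log2 change was 0.91 and 1.05 for Cox8a, 0.99 and 1.97 for Ndufb1, 1.19 and 0.92 for Ndufb8, 1.06 and 1.45 for Atp5k, and -1.37 and -0.72 for Cox7a2l. Adjusted p lay between 0.091 and 0.455. Cox4i2 could not be fitted within a single label, since the count filter removed it.

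**Figure D2:**
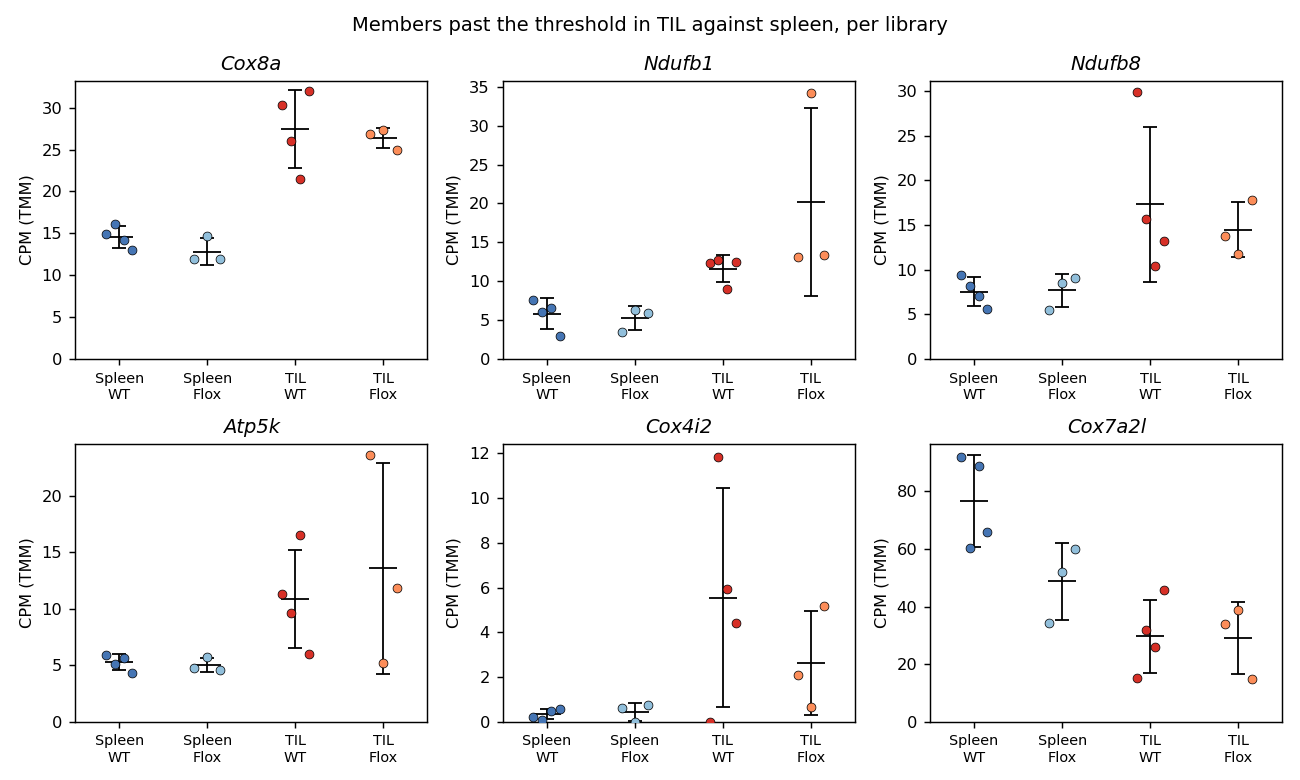
CPM (vertical axis, from 0) of the 6 members that passed in TIL against spleen, 1 point per library in the 4 groups, with group mean and SD as bars. Cox8a, Ndufb1 and Ndufb8 separate the tissues without overlap, and Cox7a2l is the 1 gene of these 6 that is lower in TIL.

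By complex, the lean toward TIL was greatest in complexes III and IV. In complex III, 7 of 8 members tested were higher (median 0.69) and 0 passed, in complex IV 11 of 12 (median 0.59) with 2 called higher and 1 lower, in complex I 29 of 38 (median 0.24) with 2 called higher, in complex II 2 of 3 (median 0.34) with 0 called, and in the ATP synthase 13 of 17 (median 0.26) with 1 called higher. Members just short of the threshold were the complex IV subunit Cox6c (1.51 ± 0.52, adjusted p = 0.0507), the complex I accessory subunit Ndufb6 (0.72 ± 0.25, adjusted p = 0.0524) and the complex III subunit Uqcr10 (0.74 ± 0.26, adjusted p = 0.0528).

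The core and F1 subunits described here did not pass on TMM scaling. In complex I, the flavoprotein Ndufv1 (0.47 ± 1.12), Ndufv2 (-0.61 ± 0.30), and the iron-sulfur subunits Ndufs1 (-0.30 ± 0.73), Ndufs3 (0.07 ± 0.40), Ndufs7 (0.11 ± 0.28) and Ndufs8 (0.19 ± 0.26) all missed the threshold, with adjusted p of 0.154 or more. Sdha was at -0.48 ± 0.44, the structural core proteins Uqcrc1 and Uqcrc2 of complex III at 0.72 ± 0.53 and 0.25 ± 0.40, and cytochrome c1 (Cyc1) at 0.59 ± 0.53. Of the F1 part of the ATP synthase, the alpha subunit Atp5a1 (0.00 ± 0.47), the catalytic beta subunit Atp5b (0.21 ± 0.28) and the gamma subunit Atp5c1 (0.27 ± 0.29) missed it as well. The intervals are wide, with 95% limits of -1.86 to 1.26 for Ndufs1.

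The ATP synthase c subunit, of which several copies form the rotor ring, comes from 3 genes that encode the same mature protein. Per kilobase Atp5g3 was the highest, at 14.0 CPM per kb in spleen and 21.8 in TIL, followed by Atp5g2 at 4.26 and 2.70 and Atp5g1 at 1.41 and 1.74 CPM per kb. The order of Atp5g2 and Atp5g1 turns with the exon length, which was 1675 bases for Atp5g2 and 4912 bases for Atp5g1. Before division by length, Atp5g1 made up 1.22% of the summed ATP synthase CPM over all libraries and Atp5g2 0.917%. The log2 changes of Atp5g3, Atp5g2 and Atp5g1 were 0.64 ± 0.27, -0.60 ± 0.40 and 0.37 ± 0.52, and none passed (adjusted p of 0.102, 0.305 and 0.655). Of the 50-base stretches of Atp5g2 38.3% and of Atp5g1 11.1% also occur in transcripts of other genes.

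The most abundant members differed widely between libraries of a group. Atp5a1 stood at 360, 333, 167 and 75.0 CPM in Spleen WT-labelled, 151, 327 and 181 CPM in Spleen Flox-labelled, 91.8, 289, 176 and 582 CPM in TIL WT-labelled and 75.6, 221 and 205 CPM in TIL Flox-labelled libraries. All 4 groups overlap. Uqcrh stood at 58.7, 32.5, 81.5 and 77.5 CPM in Spleen WT-labelled, 49.6, 64.1 and 43.5 CPM in Spleen Flox-labelled, 578, 112, 35.5 and 200 CPM in TIL WT-labelled and 147, 86.4 and 55.1 CPM in TIL Flox-labelled libraries. Of the 7 TIL values 5 exceed the highest spleen value, and the change was 1.46 ± 0.53 (adjusted p = 0.0644). Atp5b, the catalytic beta subunit, was narrower, at 84.5 to 157 CPM in spleen and 88.0 to 184 CPM in TIL.

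Summed over all 89 members, spleen libraries held 1994, 2123, 1686 and 1513 CPM when WT-labelled and 1583, 1910 and 1655 CPM when Flox-labelled. TIL libraries held 2317, 2158, 2272 and 3321 CPM when WT-labelled and 2284, 2414 and 2014 CPM when Flox-labelled. The tissues overlapped only in that Spleen WT replicate 2 exceeded TIL Flox replicate 3, and the ratio of TIL to spleen means was 1.35. On unadjusted totals the ratio was 1.05, since the TMM factors were 1.03 to 1.26 in spleen and 0.745 to 0.981 in TIL. The ratio was 2.13 for complex III, 1.48 for complex IV, 1.22 for complex I, 1.10 for the ATP synthase and 0.907 for complex II. On unadjusted totals it was 1.62, 1.15, 0.967, 0.857 and 0.721 in the same order, so the direction of complex I and the ATP synthase turns with the scaling. A few members carry these sums: in each library the 5 highest made up 33.2 to 56.4% of the sum over all members. Over all libraries Uqcrfs1 made up 41.2% and Uqcrh 28.3% of the complex III sum. Neither passed in TIL against spleen, and both differed widely between libraries of a group.

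The subunits encoded in the mitochondrial genome went the other way. All 13 were lower in TIL, with a median of -0.57, and 4 of complex I passed: mt-Nd4 (-1.10 ± 0.21, adjusted p = 0.003), mt-Nd2 (-0.92 ± 0.23, adjusted p = 0.011), mt-Nd6 (-0.93 ± 0.25, adjusted p = 0.017) and mt-Nd5 (-0.86 ± 0.23, adjusted p = 0.016). On TMM scaling 10.2% of all genes tested passed as lower in TIL. On unadjusted totals 13 of 13 were lower and 11 passed, where 2902 of 12008 genes passed in either direction and the median of all genes was -0.33. The ratio of the mitochondrially encoded sum to the nuclear sum does not depend on the scaling of a library. It was 3.30, 4.23, 3.63 and 4.03 in Spleen WT-labelled and 3.44, 3.61 and 4.07 in Spleen Flox-labelled libraries, against 2.59, 1.53, 1.63 and 1.74 in TIL WT-labelled and 1.62, 1.51 and 2.56 in TIL Flox-labelled libraries. The tissues did not overlap, and within each tissue the genotype labels did.

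**Figure D3:**
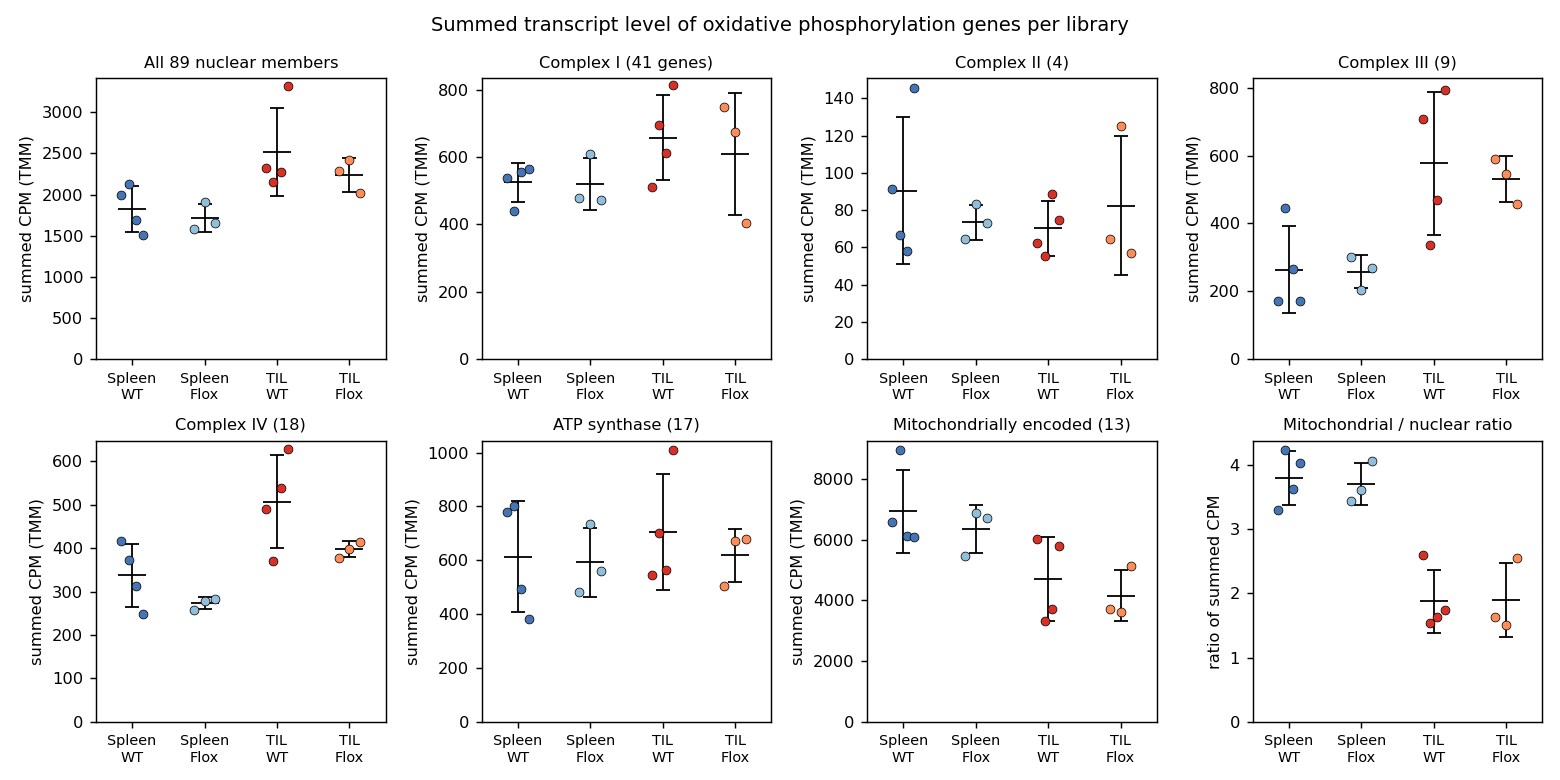
Summed CPM (vertical axes, from 0) of the nuclear members in all and by complex, of the 13 mitochondrially encoded subunits, and the ratio of the latter sum to the nuclear sum, 1 point per library in the 4 groups with mean and SD as bars. The ratio is 3.30 to 4.23 in spleen and 1.51 to 2.59 in TIL libraries.

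Genes around the complexes moved in other ways. Of 42 assembly factors tested, 20 were higher and 22 lower in TIL, with a median of -0.09 and 1 call, Ndufaf7, a methyltransferase needed for complex I assembly, which fell by 2.72 on the log2 scale (SE 0.69, adjusted p = 0.0117). Of 8 regulators tested 3 passed, each lower in TIL: the nuclear receptor Esrra, and Ppargc1b and Pprc1, coactivators of the PGC-1 family. Esrra stood at 64.8, 63.1, 26.8 and 102 CPM in Spleen WT-labelled, 33.9, 122 and 50.6 CPM in Spleen Flox-labelled, 2.54, 3.44, 1.97 and 3.06 CPM in TIL WT-labelled and 3.97, 3.32 and 3.15 CPM in TIL Flox-labelled libraries. There was no overlap, and the change was -4.43 ± 0.43 (adjusted p = 2.0e-05). Ppargc1b changed by -4.01 ± 0.81 (adjusted p = 0.003) and Pprc1 by -2.26 ± 0.56 (adjusted p = 0.010). Nrf1 (1.21 ± 0.62) and Gabpa (1.34 ± 1.90) did not pass, and 0 of 12 enzymes of the citric acid cycle did. Cytochrome c (Cycs) was at 0.61 ± 0.27, adjusted p = 0.122.

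Atpif1, which encodes the inhibitor that keeps the ATP synthase from running backwards, is no member because its symbol in the annotation lacks the prefix. It stood at 8.30 ± 1.76 CPM in spleen and 39.5 ± 30.9 CPM in TIL libraries (SD, n = 7 each), a change of 2.25 ± 0.52 (adjusted p = 0.008). The lowest TIL library, at 9.85 CPM, lay within the spleen range.

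Marker genes of Tregs and other cell types, and genes of cell handling, moved with tissue too. Of 7 Treg markers 4 were called higher in TIL, with sums of 2308 to 3846 CPM in spleen and 4842 to 9311 CPM in TIL. The 4 muscle and erythroid genes summed to 25.0 to 248 CPM in spleen and 1.28 to 15.4 CPM in TIL, and the hemoglobin genes Hba-a1 and Hbb-bs were called lower among the 3 tested. Of 3 CD8 T and NK cell markers tested 1, Klrb1c, was called lower, with sums over all 4 of 2.99 to 36.7 CPM in spleen and 1.97 to 8.57 CPM in TIL. Of the 8 B cell markers 7 were called lower in TIL, and 1 to 3 of them were at 0 in a TIL library. Of 8 macrophage markers 3 were called higher in TIL, with summed levels of 6.72 to 244 CPM in spleen and 10.9 to 160 CPM in TIL. Of 4 fibroblast and endothelial markers tested 3 were called higher and 1 leaned lower, with a median log2 fold change of 5.33. Their sums, over all 5 markers, hide this rise, at 55.0 to 164 CPM in spleen and 35.3 to 287 CPM in TIL. The 5 epithelial and carcinoma markers summed to 0.391 to 4.22 CPM in TIL, with Krt19 at 0. All 10 genes of cell handling and stress leaned higher in TIL and 1 passed, with sums of 865 to 1649 and 1071 to 2917 CPM. Their part in the differences between tissues was not tested, and in bulk RNA fewer cells of a type and less RNA per cell cannot be told apart.

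In Flox-labelled against WT-labelled TIL libraries, the comparison closest to the study's question, 0 of the 77 members tested passed in edgeR, nor did any of the 10777 genes tested (0%). DESeq2 called 266 genes (2.47%) and 0 members, and limma voom 1 gene (0.00928%) and 0 members. At an unadjusted p under 0.05 stood 1 member, against 8.08% of all genes. Of the members 34 were higher and 43 lower, with a median of -0.04 where all genes had -0.06. In complex IV 10 of 11 were lower, with a median of -0.06. On unadjusted totals the split of all members was 44 higher and 33 lower. In simulated counts the edgeR test recovered 0% of 16-fold changes in this contrast, so it could have missed large changes.

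The members with the smallest p, apart from Ndufab1, were each led by 1 library. Ndufv1, the NADH-binding flavoprotein of complex I, stood at 7.23, 8.28, 3.24 and 7.11 CPM in WT-labelled and 277, 5.87 and 11.6 CPM in Flox-labelled TIL libraries. The groups overlap apart from the value of 277, and the change was 3.92 ± 1.33 (unadjusted p = 0.0196, adjusted p = 0.584), or 0.43 without that library. Ndufa9, an accessory subunit at the joint of the complex I arms, stood at 8.59, 8.50, 174 and 8.21 CPM in WT-labelled and 7.73, 5.10 and 7.43 CPM in Flox-labelled libraries. The groups did not overlap, but the gap apart from the library of 174 CPM was under 1 CPM, and the change of -2.96 ± 1.40 (adjusted p = 0.584) was -0.30 without it.

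Ndufab1, the mitochondrial acyl carrier protein, was at -3.10 ± 1.46 with 0.781, 7.75, 34.5 and 1.96 CPM in WT-labelled and 3.03, 0.255 and 0.788 CPM in Flox-labelled libraries. Over the fits that left out 1 library its change ran from -4.45 to -1.36. Cyc1 was at 1.75 ± 0.83 and Uqcrc1 at 1.61 ± 0.87, both with their highest value, 123 and 160 CPM, in TIL Flox replicate 1, and without that library Cyc1 was at 0.02 and Uqcrc1 at -0.21. Ndufb10, an accessory subunit of complex I, was at 1.43 ± 0.68, with 51.2 CPM in the same library and 7.03 to 11.6 CPM in the other 6. Of the members 2 were higher without overlap in Flox-labelled libraries, Ndufb1 and Sdhb, and 1 lower, Ndufa9, against 2.47% and 2.53% of all genes.

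In spleen, 0 of 76 members tested and 0 of 10935 genes (0%) passed in edgeR, while DESeq2 called 124 genes (1.13%) and 0 members, and limma voom 0 genes. At an unadjusted p under 0.05 stood 1 member, against 6.86% of all genes. Of the members 30 were higher and 46 lower in Flox-labelled libraries, with a median of -0.09 where all genes had -0.06. The smallest p belonged to Uqcrq, an accessory subunit of complex III, at 9.52, 11.7, 13.5 and 5.83 CPM in WT-labelled and 14.0, 29.0 and 26.5 CPM in Flox-labelled libraries. The Flox-labelled libraries were all above, the lowest of them narrowly, and the change was 1.19 ± 0.49 (unadjusted p = 0.0421, adjusted p = 0.674).

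Next came Ndufa9 (1.52 ± 0.76, with 44.9 CPM in Spleen Flox replicate 2 against 3.45 to 9.38 CPM in the others), the ATP synthase c subunit gene Atp5g1 (1.11 ± 0.56), Ndufb2 (-0.81 ± 0.41), the ATP synthase subunit g gene Atp5l (0.95 ± 0.53) and Ndufa1 (-0.76 ± 0.46), all with an adjusted p of 0.674 or more. Of Atp5l, 84.8% of 50-base stretches also occur in transcripts of other genes. In all, 2 members, Uqcrq and Ndufs6, were higher without overlap and 3, Ndufb2, Cox7a2l and Ndufa4, lower, against 2.75% and 3.13% of all genes.

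**Figure D4:**
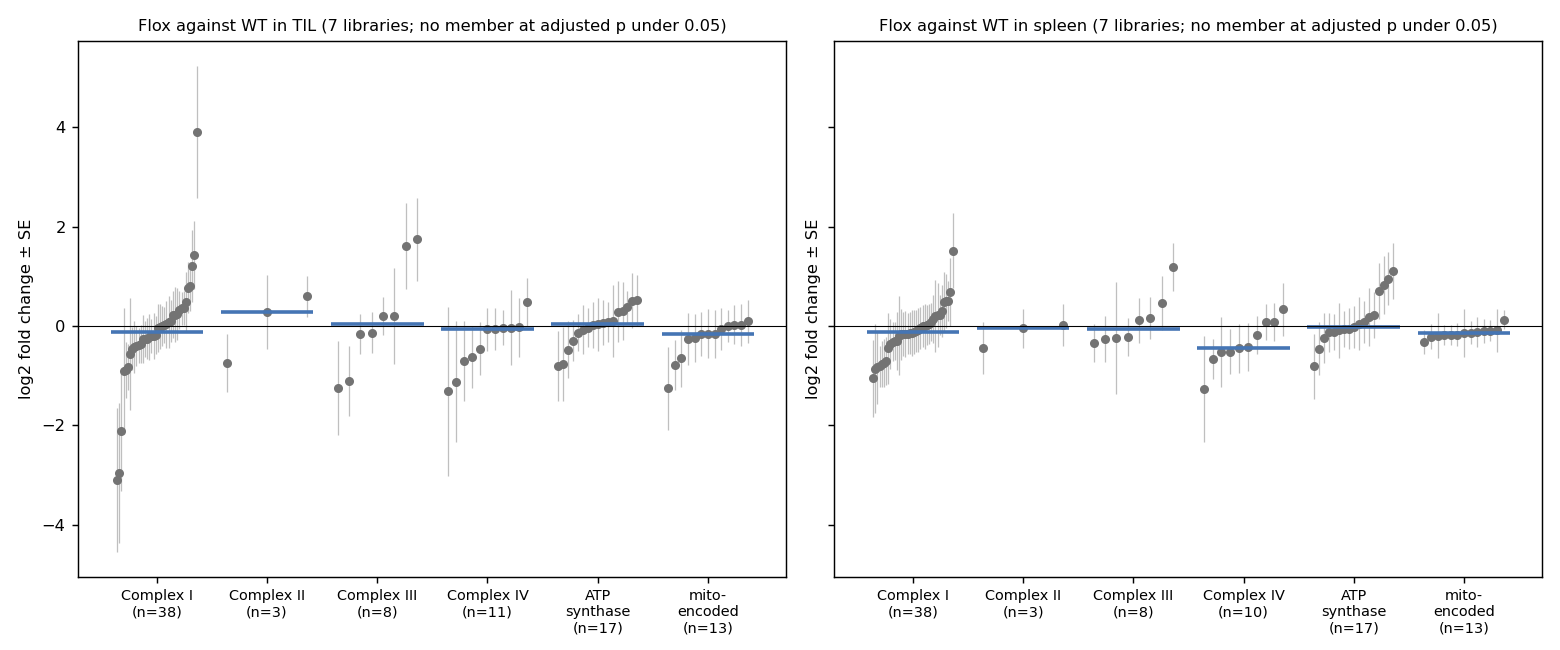
Log2 fold change of Flox-labelled against WT-labelled libraries (vertical axis, bars are SE) in TIL on the left and in spleen on the right, by complex and for the 13 mitochondrially encoded subunits; blue bars are medians. The points far from 0 in TIL, such as Ndufv1 at 3.92, have the widest bars.

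The difference of the genotype contrast between tissues was tested directly. In edgeR 0 of 78 members and 0 of 12008 genes (0%) passed, while DESeq2 called 157 genes (1.31%) and 0 members and limma voom 0 genes, and at an unadjusted p under 0.05 stood 2 members against 10.8% of all genes. These 2 were Ndufa9 (-4.41 ± 1.59) and Ndufv1 (4.12 ± 1.60), both with an adjusted p of 0.425, and both rest on the single libraries given above. Atp5g1 (-1.87 ± 0.91), Ndufab1 (-3.21 ± 1.63), Atp5l (-1.41 ± 0.80) and Cyc1 (1.65 ± 0.96) followed. The SE of the members had a median of 0.71 for this difference, so the test could have missed large changes.

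The spread of the members between libraries of a group was wide at one end and narrow at the other. The within-group SD of log2(CPM + 1) had a median of 0.48 over the 78 members tested and 0.85 over all genes tested, and between 10 and 100 CPM it was 0.49 for 47 members and 1.06 for 5246 genes. The steadiest were Ndufa4 (0.11), a small subunit first assigned to complex I and later found with complex IV, Cox8a (0.17), Cox5b (0.19) and Ndufa13 (0.22). Ndufa4 stood between 13.4 and 20.9 CPM in all 14 libraries. At the other end were Cox7c (1.92), Uqcrfs1 (1.75), Ndufs1 (1.52) and Ndufv1 (1.49). Across 76 members the SD had a Spearman correlation of 0.35 with exon length, a description over genes that share libraries. The members had a median exon length of 1778.5 bases and all genes tested 4390.5 bases.

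Single libraries stood far out for some members. Pairs of libraries within a group differed more in TIL (chi-square per degree of freedom of 184 to 391) than in spleen (92.1 to 182), and the share of all genes with such peaks is not given. In 12 members the highest library was at least 5 times the median of all 14, and each of these peaks was in a TIL library. TIL Flox replicate 1 held 4 of them (Ndufv1, Cox7a2, Uqcrc1 and Cyc1), TIL WT replicate 2 held 3 (Cox4i2, Ndufv3 and Ndufb7), TIL WT replicate 1 held Uqcrh and Cox6c, TIL WT replicate 3 Ndufa9 and Ndufab1, and TIL WT replicate 4 Cox7c. Cox7c, a small subunit of complex IV, was at 272 CPM there against a median of 7.36 CPM. The median of all 14 pools both tissues. A member higher in TIL can thus reach 5 times that median without 1 library standing apart, as with the Cox4i2 values given above. Uqcrfs1 was not a matter of 1 library: it ran from 13.1 to 296 CPM in spleen and from 22.5 to 475 CPM in TIL, high and low in both genotype labels.

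**Figure D5:**
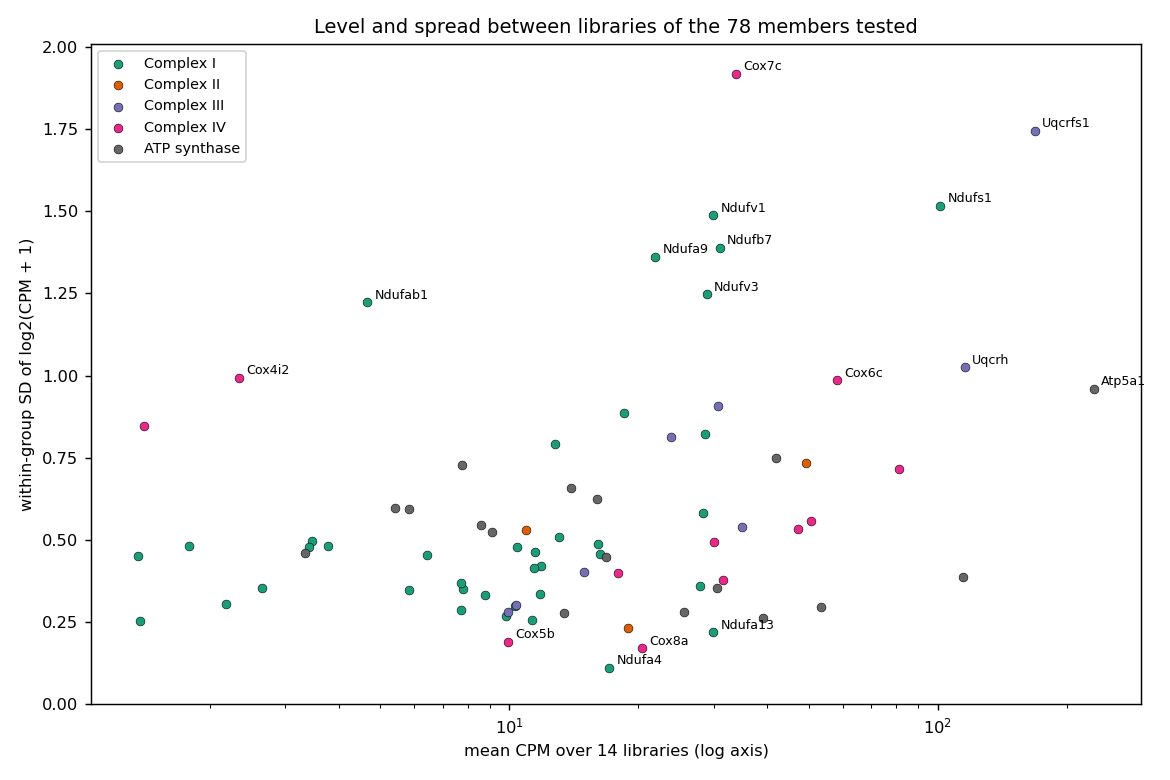
Within-group SD of log2(CPM + 1) (vertical axis) against mean CPM over 14 libraries (horizontal axis, log scale) for the 78 members tested, 1 point per gene, colored by complex. The most variable members, with an SD above 1.2, lie between 4.66 and 168 CPM, and the steadiest, such as Ndufa4 at 0.11, lie among them in level.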

How the data were processed

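In all 14 libraries polyadenylated RNA of sorted Tregs was measured. Counts as deposited by the authors are raw and cover 27179 NCBI gene IDs; the submitters' processing notes name mm10. Aligner, counter and strand setting were not found, so overlapping and antisense genes (31 members have such an exon) and near-identical copies could not be separated. Ndufb1 was matched through an older gene number.

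The main test was edgeR 4.0.16 in R 4.3.3 (filterByExpr by group, TMM, quasi-likelihood F test) on the whole table. P-values were adjusted by Benjamini-Hochberg across every gene tested, at 0.05. The SE is the log2 fold change over the root of F. The tissue contrast used 14 libraries with the genotype label as covariate, each genotype contrast its 7 libraries, and the difference of contrasts all 14. Il23r was compared by a two-sided exact permutation test. Alternatives were DESeq2 1.42.0, voom (limma 3.58.1) with quality weights, RLE scaling, no filter, a filter at 5 CPM in 3 libraries, a replicate block, each library left out, both WT libraries numbered 2 left out, 1 genotype label only and all 14 libraries in 1 fit. Unadjusted library totals, and the block within 1 genotype label, were added after seeing the data. The test was first tried on simulated counts. In the tissue contrast it recovered 2% of 2-fold, 16% of 4-fold, 44% of 8-fold and 86% of 16-fold changes. Of 16-fold changes it recovered 0% in the TIL genotype contrast, 28% in the spleen genotype contrast and 2% in the difference of contrasts. Libraries of a group differed beyond sampling noise (chi-square per degree of freedom at least 92.1).

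Named members were those past the threshold, or the 6 with the smallest p where fewer passed, fixed subunits by role and isoforms known from other tissues. Members with single high libraries were named after their values were seen. Members and lists were chosen with earlier results of these data known. Limits for counts of 0 are 3 counts and cover counting error only. Not every member is reported by name here.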

Additional observations from a re-analysis of the deposited data

Results flagged for a closer look

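Within groups of 4, a library was taken as standing apart when its gap to the nearest other library exceeded Dixon's 95% critical share of the group's range. Over 155 member groups this held for 16. The nominal rate of about 1 in 20 assumes normal and independent values, while these groups share libraries. No share over all genes is given, so the count does not show an excess among the members. The sum over all members stood apart in TIL WT replicate 4, at 3321 CPM against 2158 to 2317 CPM in the other 3.

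In the same library Cox7c was at 272 CPM, Ndufb2 at 5.64 CPM and Ndufb4c at 2.33 CPM. TIL WT replicate 3 stood apart on the high side for Ndufa9 at 174 CPM, Uqcrc2 at 108 CPM, Sdha at 62.9 CPM, Atp5g1 at 25.2 CPM, Ndufs6 at 23.9 CPM and Ndufa12 at 2.39 CPM. On the low side it stood apart for Ndufb1 at 9.01 CPM and Ndufa6 at 1.41 CPM. TIL WT replicate 2 stood apart for Ndufv3, at 165 CPM. In spleen, WT replicate 1 stood apart for Cox7c at 52.2 CPM and Ndufs4 at 23.9 CPM, and WT replicate 2 for Cyc1 at 25.5 CPM and Ndufs8 at 11.4 CPM. Groups of 3 libraries cannot be examined this way, so the peaks of TIL Flox replicate 1 are not among these.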

How the results depend on the processing

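The count of members called in TIL against spleen, 6 as reported, was 19 with DESeq2, 3 with no filter, 3 on unadjusted library totals (1 higher and 2 lower, against 5 and 1 as reported) and 2 without both WT-labelled libraries numbered 2. It was 0 within WT-labelled and 0 within Flox-labelled libraries, where 7.10% and 7.87% of all genes passed, and 0 in both with a replicate block, where 173 of 10560 and 1 of 10760 genes passed. Leaving out 1 library at a time gave 5 to 9. The members' median of 0.35 was -0.014 on unadjusted totals, and the ratio of summed levels of 1.35 was 1.05. On these totals the members' median of the difference of contrasts was 0.33 in place of 0.09, and that of all genes 0.21 in place of 0.02. Without TIL Flox replicate 1, Uqcrc1 in TIL reversed to -0.21 and Cyc1 in the difference of contrasts to -0.089; over all fits that left out 1 library they ran from -0.21 to 2.08 and from -0.089 to 2.09. With the replicate number as a block 4 members were called, where 2050 of 12008 genes passed, and Cox8a had an adjusted p of 0.053. Same-numbered libraries did not deviate together (correlations of -0.036 to 0.045). Yet both WT-labelled libraries numbered 2 held Xist and Ddx3y reads together, so whether same-numbered libraries share a source cannot be told here. For the genotype contrasts and their difference, 0 members passed in every alternative. The cause of these shifts was not tested. The spread between libraries limits the genotype contrasts, where the members' log2 changes had a median SE of 0.49 in TIL and 0.46 in spleen.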
